A study of Homo sapiens with 39 samples.

Results

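The 6 genes described here, UGT2B7, UGT2B10, UGT2B11, UGT2B15, UGT2B17 and UGT2B28, encode UDP-glucuronosyltransferases of the 2B family. They were chosen by symbol, through the Ensembl identifiers of the deposited count table, as 6 of its 63187 genes, and all 6 had counts. RNA sequencing was done in C4-2B cells, a castration-resistant prostate cancer line derived from LNCaP. In the first experiment, called the panel, cells were treated for 5 days with DMSO vehicle, abiraterone at 5 µM, enzalutamide at 20 µM, olaparib at 1 µM, talazoparib at 10 nM, abiraterone with olaparib, or enzalutamide with talazoparib, the combinations at the same doses. In the second, the time course, cells received DMSO, olaparib at 1 µM or olaparib at 5 µM for 1 or 5 days. All cells were grown in RPMI medium with fetal bovine serum, so every group, the controls included, had serum, and each of the 13 groups had 3 libraries, lettered A to C in the panel and numbered 1 to 3 in the time course. Abiraterone, given as its acetate, inhibits the CYP17 enzyme of androgen synthesis, and enzalutamide is an antiandrogen. Both are referred to as ARPi, inhibitors of androgen signaling. Olaparib and talazoparib are PARP inhibitors (PARPi). All results come from 1 cell line, and the labels do not say whether the libraries of a group came from separate cultures, so p-values measure the spread between these libraries, which may be technical.

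UDP-glucuronosyltransferases sit in the endoplasmic reticulum and transfer glucuronic acid from UDP-glucuronic acid to small lipophilic molecules, which makes them soluble and ready for export. UGT2B15 and UGT2B17 conjugate testosterone, dihydrotestosterone and their reduced metabolites such as androstanediol, and are the enzymes by which prostate cells inactivate androgens. UGT2B17 is also known for a common germline deletion. UGT2B7 is a broad enzyme of the liver that conjugates steroids, opioids and many drugs, and UGT2B10 conjugates the nitrogen of nicotine and tricyclic amines. UGT2B28 can conjugate androgens, and the substrates of UGT2B11 are little defined. In prostate cancer cells, androgen is known to repress UGT2B15 and UGT2B17.

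All 6 genes lie in 1 cluster on the long arm of chromosome 4. On GRCh38 their order is UGT2B17 (ENSG00000197888.3, chr4:68537173-68576413, minus strand), UGT2B15 (ENSG00000196620.10, chr4:68646597-68670652, minus), UGT2B10 (ENSG00000109181.12, chr4:68815994-68832023, plus), UGT2B7 (ENSG00000171234.14, chr4:69051363-69112987, plus), UGT2B11 (ENSG00000213759.10, chr4:69199951-69214748, minus) and UGT2B28 (ENSG00000135226.18, chr4:69280475-69295050, plus). The coding sequences are close copies. UGT2B15 and UGT2B17 were 96.5% identical, UGT2B11 and UGT2B28 97%, UGT2B10 and UGT2B11 95%, and UGT2B7 and UGT2B10 92.7%, whereas identity between the UGT2B15/UGT2B17 pair and the other members was 84.1 to 85.6%. Of the 31-base words of the UGT2B15 transcript, 36.1% also occurred in that of UGT2B17, and 31% the other way. For UGT2B11, 35.6% of the words were shared with UGT2B28, and for UGT2B28 40.4% with UGT2B11, while UGT2B28 and UGT2B15 shared 0. UGT2B10 shared 16.9% of its words with UGT2B11 and 26.5% with any other member, and UGT2B7 shared 20.2% with any other member. Counts within the pairs UGT2B15/UGT2B17 and UGT2B11/UGT2B28 therefore depend on how reads common to both were assigned. Those of UGT2B10 and UGT2B7 also depend on reads common with UGT2B11 and UGT2B28. The counts of close copies were also summed.

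The 60-base coding stretch with the most differences between the copies of each pair is printed 5′ to 3′ in the sense of the transcript, from GENCODE transcripts on GRCh38, because reads over these bases tell the copies apart. Capitals mark the bases that differ within the pair, 9 of 60 in the UGT2B15 and UGT2B17 stretch and 5 of 60 in the UGT2B11 and UGT2B28 stretch. The UGT2B15 stretch lies in exon 1 (chr4:68670318-68670377, minus strand), the UGT2B17 stretch in exon 2 (chr4:68568184-68568243, minus), and those of UGT2B11 (chr4:69214630-69214689, minus) and UGT2B28 (chr4:69280534-69280593, plus) in exon 1.
UGT2B15: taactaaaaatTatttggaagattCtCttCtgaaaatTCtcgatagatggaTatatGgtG
UGT2B17: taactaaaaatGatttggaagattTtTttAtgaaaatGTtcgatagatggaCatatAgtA
UGT2B11: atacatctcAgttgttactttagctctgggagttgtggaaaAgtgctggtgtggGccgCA
UGT2B28: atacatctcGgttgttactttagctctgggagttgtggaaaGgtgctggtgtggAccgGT
Over the whole coding sequence the first pair differed at 55 of 1590 bases and the second at 47 of 1587.

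RefSeq promoters on GRCh38.p14 matched 4 of the 6 members, all but UGT2B17 and UGT2B28, and their 250 bases before the start site are printed. The copies that moved together, UGT2B15 with UGT2B17 and UGT2B11 with UGT2B28, can therefore not be compared there. Windows of 300 bases, which add 50 bases after the start, were searched on both strands for the full androgen response element, which is an inverted repeat of AGAACA with 3 bases between (present in 0.00285% of all 35116 promoters of this length), AGAACA by itself (14.8%), the forkhead motifs TGTTTAC (3.42%) and TGTTTGC (3.89%), the palindromic HNF1 motif (0.0285%) and the TATA box TATAAA (11.5%). Capitals mark the matches. The window of UGT2B15 (chr4:68670653-68670902, minus strand) held TGTTTAC on the opposite strand and AGAACA, those of UGT2B10 (chr4:68815744-68815993, plus) and UGT2B11 (chr4:69214749-69214998, minus) held TATAAA 3 and 2 times, and that of UGT2B7 (chr4:69096224-69096473, plus) held none of these motifs. The first bases of the TATAAA matches lay between -248 and -179 from the start. The UGT2B7 window lies inside the gene span given above.
UGT2B15: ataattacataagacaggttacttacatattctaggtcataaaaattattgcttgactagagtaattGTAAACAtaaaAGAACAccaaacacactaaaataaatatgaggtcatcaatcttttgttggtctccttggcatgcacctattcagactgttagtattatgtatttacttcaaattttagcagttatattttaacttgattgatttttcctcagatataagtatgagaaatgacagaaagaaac
UGT2B10: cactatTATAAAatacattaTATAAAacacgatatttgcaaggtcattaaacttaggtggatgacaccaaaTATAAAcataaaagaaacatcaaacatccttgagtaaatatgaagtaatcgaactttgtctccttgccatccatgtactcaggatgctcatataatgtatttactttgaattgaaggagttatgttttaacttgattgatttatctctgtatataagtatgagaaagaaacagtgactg
UGT2B11: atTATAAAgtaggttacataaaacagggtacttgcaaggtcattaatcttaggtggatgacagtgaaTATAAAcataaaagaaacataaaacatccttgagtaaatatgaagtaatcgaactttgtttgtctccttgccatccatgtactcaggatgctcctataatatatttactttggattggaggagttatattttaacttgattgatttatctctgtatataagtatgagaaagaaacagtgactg
UGT2B7: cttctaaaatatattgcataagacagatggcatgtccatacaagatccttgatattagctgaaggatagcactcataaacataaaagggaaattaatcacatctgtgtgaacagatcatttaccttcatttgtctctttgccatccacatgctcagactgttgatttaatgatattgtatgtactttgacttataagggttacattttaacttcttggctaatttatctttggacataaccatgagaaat
The upstream bases of UGT2B10 and UGT2B11 were 90.2% identical, those of UGT2B11 and UGT2B15 70.9%, and those of UGT2B7 and the other 3 members 58.4 to 63.7%.

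The 39 libraries held between 26932205 and 49833473 counts, with a median of 37223200. Levels are given as CPM, TMM-scaled counts of a library relative to its total. The prostate luminal markers KLK3, KLK2, HOXB13, FOXA1, FOLH1, TMPRSS2, KRT8 and KRT18 were detected in every library, KLK3 at 289 to 1902 CPM and KRT8 at 214 to 526 CPM. Markers of hepatocytes, which also express UGT2B genes, summed to 2.04 to 11.6 CPM, with ALB at 0 to 11 counts. The summed range was 0 to 1.94 CPM for prostate basal, 0.901 to 2.72 for neuroendocrine and 26.6 to 77.3 for stroma markers, the last from VIM and COL1A1 with COL1A2 and DCN at no more than 2 counts, and the blood marker PTPRC was at 0 to 1.17 CPM. Drug response genes moved by treatment. KLK3, the prostate-specific antigen gene, fell by 1.58 ± 0.05 on the log2 scale (SE) with abiraterone (adjusted p = 3.78e-15) and by 2.25 ± 0.05 with enzalutamide (3.02e-17), and CDKN1A, the p21 gene, rose by 1.98 ± 0.05 with talazoparib (6.39e-16).

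In DMSO-treated cells of the panel, levels per kilobase of transcript differed widely between the members. UGT2B11 stood at 40.1 CPM per kb, UGT2B28 at 30.1, UGT2B15 at 8.44, UGT2B17 at 2.56, UGT2B10 at 0.766 and UGT2B7 at 0.0498. The libraries of neighbors in this order did not overlap. UGT2B11 and UGT2B10, whose upstream bases were the closest, were thus the first and the fifth in level. The same order was found with olaparib and with talazoparib, and in all 6 groups of the time course. With ARPi the order changed. Abiraterone gave 26.4 CPM per kb for UGT2B15, 23.7 for UGT2B17, 2.92 for UGT2B11, 1.29 for UGT2B10, 1.09 for UGT2B28 and 0.0987 for UGT2B7, where only UGT2B10 and UGT2B28 overlapped as neighbors. Enzalutamide gave 20.7 for UGT2B15, 12 for UGT2B17, 3.04 for UGT2B11, 0.934 for UGT2B28, 0.606 for UGT2B10 and 0.0906 for UGT2B7.

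**Figure D1:**
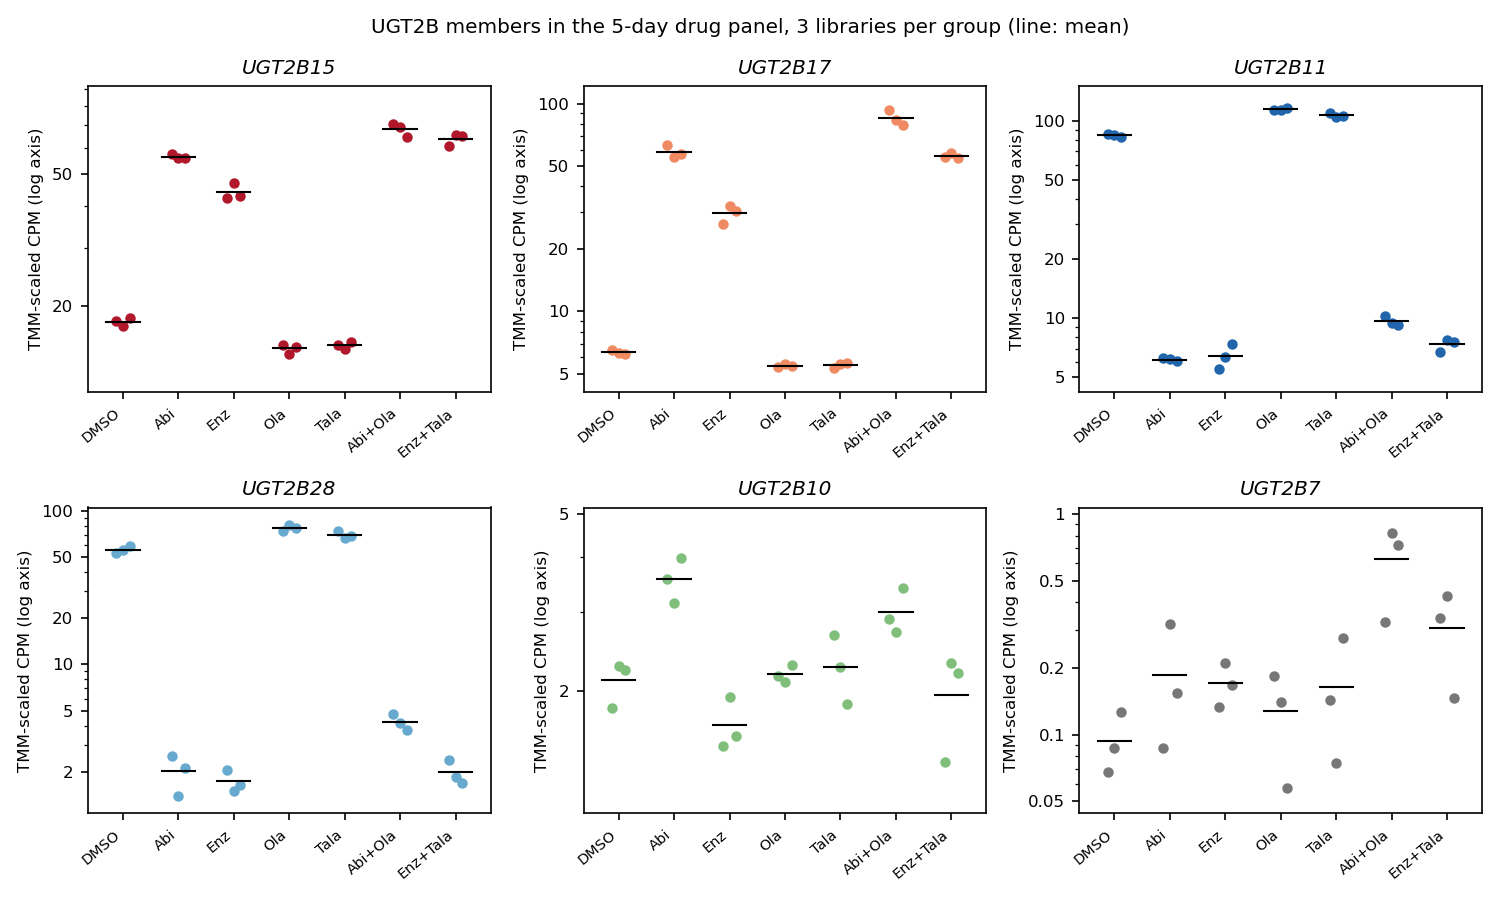
Level of each of the 6 UGT2B genes (TMM-scaled CPM, log axis) in the 7 groups of the panel. Points are the 3 libraries of a group and lines are their means. UGT2B15 and UGT2B17 sit higher and UGT2B11 and UGT2B28 lower in all 4 groups with abiraterone or enzalutamide than in DMSO, olaparib or talazoparib.

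The first comparison asked how blocking androgen signaling changed the members. UGT2B15 and UGT2B17, which conjugate testosterone and dihydrotestosterone, rose, and UGT2B11 and UGT2B28, the latter also able to conjugate androgens, fell. UGT2B7 passed the filter on low counts through groups in which it was high, so counts and medians of members here leave it out and its values are given apart. Of the 5 others, 5 were called with abiraterone (3 higher, 2 lower), where 52.9% of the 18625 genes tested were called at an adjusted p under 0.05, and 4 with enzalutamide (2 higher, 2 lower), where 53.3% were called. The median log2 fold change of the 5 members was 0.75 with abiraterone and -0.33 with enzalutamide, and that of all genes 0.000297 and 0.0174. As UGT2B15 and UGT2B17 lay above and UGT2B11 and UGT2B28 below, the members' median was the value of UGT2B10 and does not describe the family. All comparisons with DMSO in the panel share its 3 DMSO libraries, and in these bulk samples fewer cells with a transcript and less RNA per cell cannot be told apart.

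UGT2B15, which inactivates dihydrotestosterone, was at 18.1, 17.5 and 18.5 CPM in the DMSO libraries. With abiraterone its libraries were at 57.5, 55.7 and 55.6 CPM (mean 56.3 ± 1.04 SD, n = 3), and with enzalutamide at 42.3, 47.1 and 42.9 CPM (44.1 ± 2.62). Every treated library lay above every DMSO library. The log2 fold change was 1.64 ± 0.05 (SE) with abiraterone, a 3.12-fold rise (edgeR quasi-likelihood test, adjusted p = 5.08e-25), and 1.29 ± 0.05 with enzalutamide, a 2.45-fold rise (7.45e-22). UGT2B17, the other main androgen-inactivating enzyme, started lower and moved further. Its DMSO libraries were at 6.55, 6.29 and 6.20 CPM, its abiraterone libraries at 63.5, 55.3 and 57.4 CPM (58.7 ± 4.22) and its enzalutamide libraries at 26.3, 32.2 and 30.5 CPM (29.7 ± 3.03). Again the groups did not overlap. The rise was 3.21 ± 0.08 on the log2 scale with abiraterone, or 9.27-fold (adjusted p = 8e-24), and 2.24 ± 0.08 with enzalutamide, or 4.71-fold (1.64e-19). Summed, UGT2B15 and UGT2B17 rose by 2.24 with abiraterone and by 1.60 with enzalutamide on the log2 scale. The 4 intestine markers VIL1, FABP2, SI and CDX1, of a tissue that also expresses UGT2B genes, moved in the same groups, from a summed 2.79 to 3.46 CPM with DMSO to at least 8.50 with abiraterone and at least 10.1 with enzalutamide. FABP2 and CDX1 had at most 2 counts in any library. The stroma markers also moved, from 26.6 to 34.8 CPM with DMSO to 47.0 to 49.5 with abiraterone and 36.6 to 39.2 with enzalutamide, as did the hepatocyte markers, from 2.04 to 2.55 CPM to 3.30 to 3.88 and 3.03 to 3.23. The part of these 3 lists in the result was not tested.

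UGT2B11 was the most abundant member without ARPi, at 85.6, 84.6 and 82.9 CPM in the DMSO libraries. It stood at 6.25, 6.16 and 6.04 CPM with abiraterone (6.15 ± 0.106) and at 5.50, 6.34 and 7.37 CPM with enzalutamide (6.41 ± 0.937), far below all DMSO libraries. Its log2 fold change was -3.78 ± 0.06 with abiraterone, 13.7-fold lower (adjusted p = 1.17e-33), and -3.70 ± 0.06 with enzalutamide, 13-fold lower (4.96e-34). UGT2B28, its nearest copy, was at 53.5, 55.6 and 58.7 CPM with DMSO. It was at 2.53, 1.40 and 2.12 CPM with abiraterone (2.02 ± 0.573) and at 2.07, 1.51 and 1.63 CPM with enzalutamide (1.74 ± 0.294). The groups were again apart. The log2 fold change of UGT2B28 was -4.78 ± 0.10 with abiraterone, 27.5-fold lower (9.38e-23), and -5.04 ± 0.10 with enzalutamide, 32.8-fold lower (2.8e-23). The calls of UGT2B11, UGT2B15, UGT2B17 and UGT2B28 with abiraterone and with enzalutamide, and their directions, held under every alternative processing that was run, the omission of each library in turn included.

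UGT2B10 and UGT2B7 were low and moved less. UGT2B10, a liver enzyme for amines, had 1.83, 2.27 and 2.23 CPM in the DMSO libraries, 3.57, 3.15 and 3.97 with abiraterone and 1.50, 1.93 and 1.58 with enzalutamide. The abiraterone libraries lay above all DMSO libraries, and the enzalutamide libraries overlapped them. UGT2B10 rose by 0.75 ± 0.18 on the log2 scale with abiraterone (adjusted p = 0.000657), and its value with enzalutamide was -0.33 ± 0.19 (95% interval -0.72 to 0.05, adjusted p = 0.139). The sum of its counts with those of its close copies UGT2B7, UGT2B11 and UGT2B28 fell by 3.58 with abiraterone. With DMSO that sum was mostly UGT2B11 and UGT2B28, at means of 84.4 and 55.9 CPM against 2.11 for UGT2B10 and 0.0940 for UGT2B7. Its direction therefore does not bear on UGT2B10 or UGT2B7. UGT2B7 had 2, 3 and 5 counts with DMSO, 3, 10 and 5 with abiraterone and 4, 9 and 7 with enzalutamide, and no difference was detectable at this depth (adjusted p = 0.248 and 0.289). UGT2B7 passed the filter on low counts (0.275 CPM in at least 3 libraries) through the combination groups, in which 5 of 6 libraries were above it, against 0 of 3 with DMSO. No call is thus read from its values in groups that brought it past the filter.

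**Figure D2:**
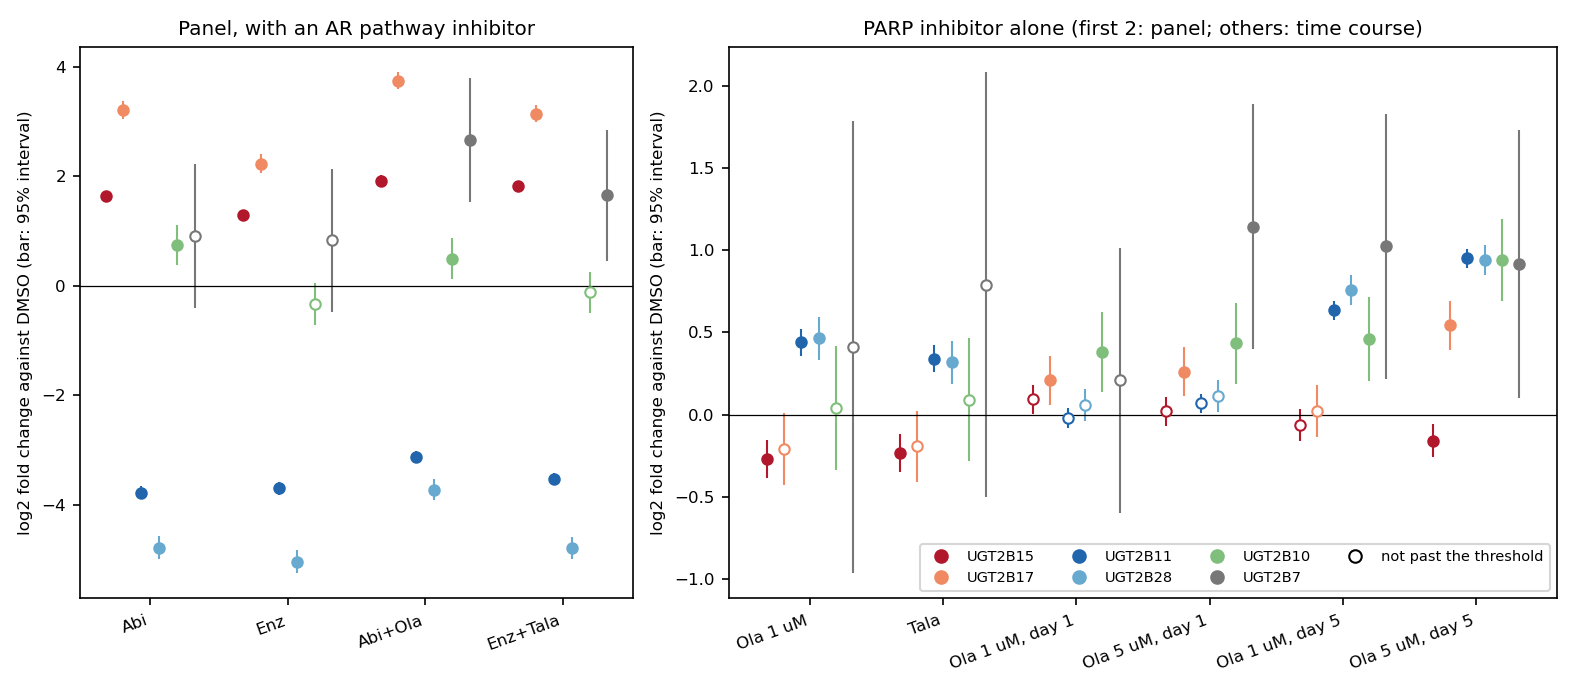
Log2 fold change against DMSO for the 6 genes, with abiraterone, enzalutamide and the combinations on the left and with PARP inhibitors alone on the right. Bars are 95% intervals and open markers did not pass the threshold of an adjusted p under 0.05. UGT2B15 and UGT2B17 lie above 0 and UGT2B11 and UGT2B28 below 0 in the 4 comparisons on the left.

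The ARPi thus left the family with a different make-up. The summed level of the 6 genes was 82.0 ± 0.870 CPM per kb with DMSO, 55.4 ± 2.47 with abiraterone and 37.3 ± 2.46 with enzalutamide. UGT2B15 and UGT2B17 made up 13.4% ± 0.289 of it with DMSO, 90.3% ± 0.383 with abiraterone and 87.4% ± 0.893 with enzalutamide. UGT2B17 alone was 23.3% ± 0.736 of the UGT2B15 and UGT2B17 level with DMSO, 47.3% ± 1.33 with abiraterone and 36.6% ± 1.58 with enzalutamide. UGT2B28 was 42.9% ± 1.54 of the UGT2B11 and UGT2B28 level with DMSO, 26.8% ± 5.69 with abiraterone and 23.7% ± 5.37 with enzalutamide. Errors are SD over 3 libraries, and no test was run on these shares.

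**Figure D3:**
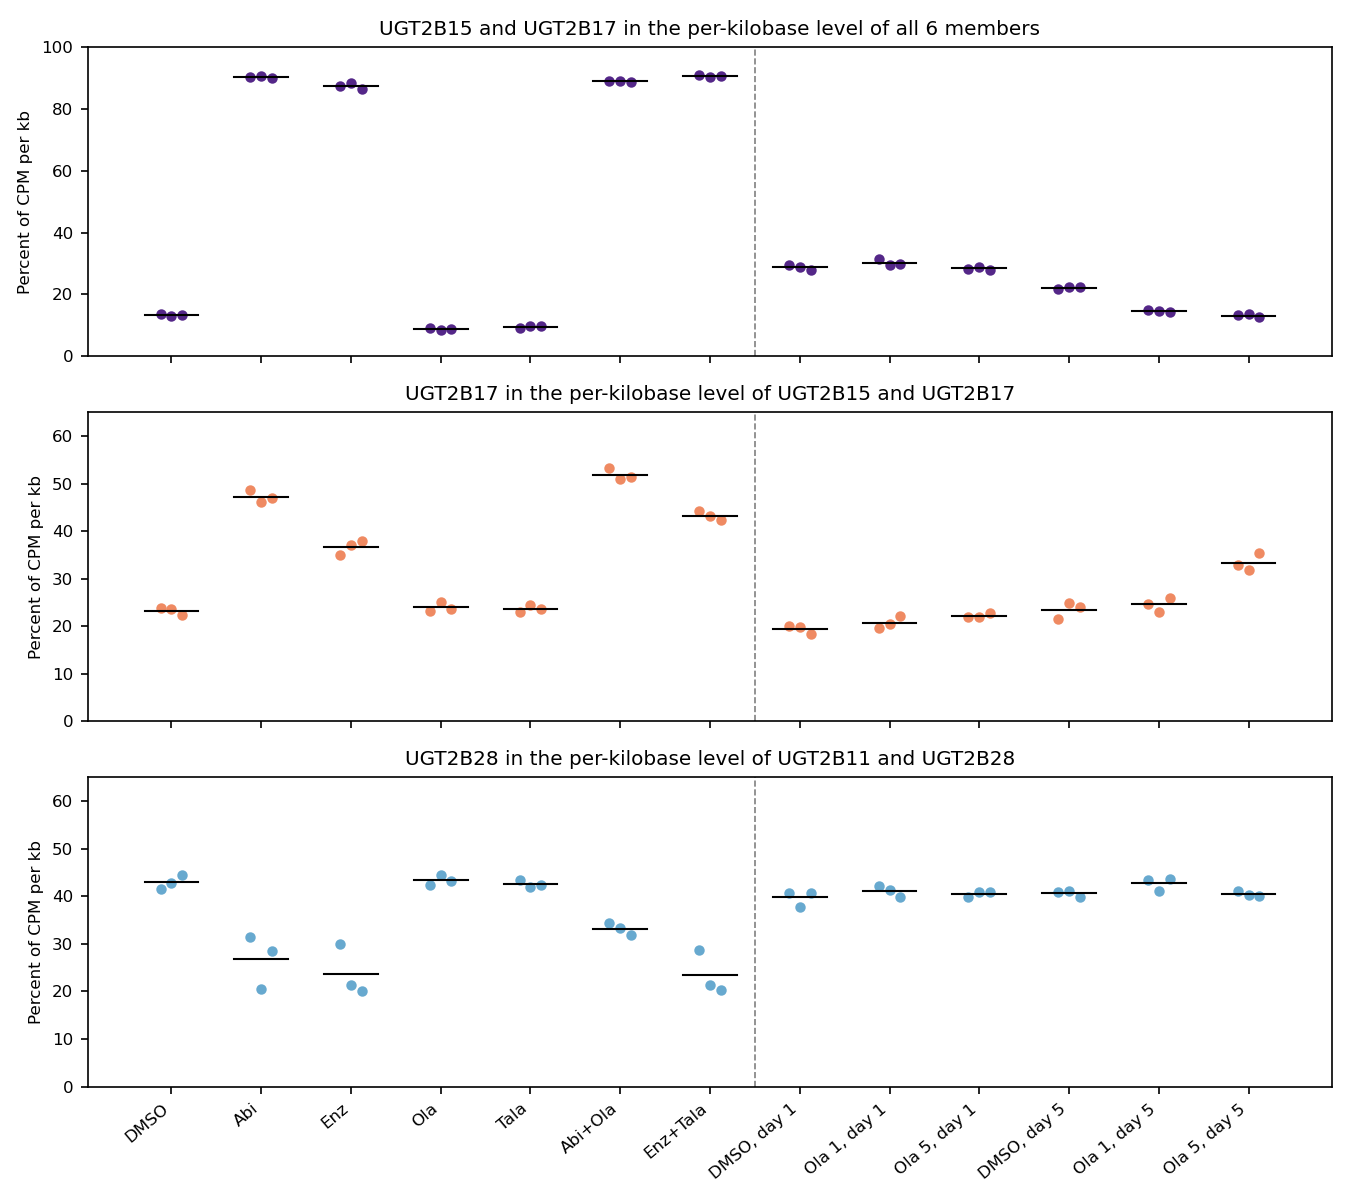
Share of UGT2B15 and UGT2B17 in the per-kilobase level of all 6 genes, of UGT2B17 within the UGT2B15/UGT2B17 pair, and of UGT2B28 within the UGT2B11/UGT2B28 pair, in percent, for each of the 39 libraries by group. In the first panel the 4 groups with abiraterone or enzalutamide lie between 86.5% and 90.8%, all above the other groups.

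Set directly against each other, enzalutamide and abiraterone differed in 3 of the 5 members, all lower with enzalutamide, where 19.8% of all genes were called. The log2 difference was -0.98 ± 0.06 for UGT2B17 (adjusted p = 7.95e-13), -0.35 ± 0.04 for UGT2B15 (1.99e-07) and -1.08 ± 0.18 for UGT2B10 (3.36e-05). The libraries of both groups did not overlap for these 3 genes and overlapped for UGT2B7, UGT2B11 and UGT2B28. The drugs were given at different doses, 20 and 5 µM, so the values stand side by side and do not compare the drugs at a matched dose.

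The next comparison asked what the PARP inhibitors did alone. The 3 members called moved little, UGT2B11 and UGT2B28 higher and UGT2B15 lower. With olaparib 3 members were called (2 higher, 1 lower) against 35.6% of all genes, and with talazoparib 3 (2 higher, 1 lower) against 33.8%. The members' median, again the value of UGT2B10, was 0.04 and 0.09, and that of all genes 0.0154 and 0.0197. UGT2B11 was at 113, 114 and 116 CPM with olaparib and at 109, 105 and 106 CPM with talazoparib, above all 3 DMSO libraries. It rose by 0.44 ± 0.04 on the log2 scale (1.36-fold, adjusted p = 8.97e-11) and by 0.34 ± 0.04 (1.27-fold, 3.24e-08). UGT2B28 was at 73.5, 81.0 and 77.5 CPM with olaparib and at 74.0, 66.6 and 69.1 CPM with talazoparib, also above DMSO. Its rise was 0.47 ± 0.06 (1.65e-06) and 0.32 ± 0.06 (0.000268). UGT2B15 was at 15.3, 14.4 and 15.2 CPM with olaparib and at 15.4, 14.9 and 15.7 CPM with talazoparib, below all DMSO libraries. It fell by 0.27 ± 0.06 (0.00028) and by 0.23 ± 0.06 (0.00118). The stroma markers, at 45.5 to 52.0 CPM with olaparib and 49.1 to 55.5 with talazoparib, and the hepatocyte markers, at 3.53 to 3.87 and 4.18 to 4.27 against 2.04 to 2.55 CPM with DMSO, moved in the same libraries. Luminal markers were also higher, at 5577 to 5731 and 5599 to 5744 against 4993 to 5210 CPM. So were basal markers, at 0.802 to 1.66 and 0.954 to 1.12 against 0.233 to 0.781 CPM. Neuroendocrine markers were lower, at 1.32 to 1.69 and 1.54 to 1.78 against 2.25 to 2.72 CPM. The part of these lists was not tested.

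UGT2B17 was at 5.40, 5.59 and 5.47 CPM with olaparib and at 5.34, 5.61 and 5.64 CPM with talazoparib. These libraries also lay below the 3 DMSO libraries, but the fold change did not pass the test, at -0.21 ± 0.11 (95% interval -0.43 to 0.01, adjusted p = 0.138) and -0.19 ± 0.10 (0.165). Summed with UGT2B15 it did, at -0.25 (0.00101) and -0.22 (0.00297). UGT2B10 overlapped DMSO, at 2.16, 2.09 and 2.29 CPM with olaparib and 2.67, 2.26 and 1.87 with talazoparib, with log2 values of 0.04 (0.896) and 0.09 (0.761). UGT2B7 had 7, 5 and 2 counts with olaparib and 5, 3 and 13 with talazoparib (0.696 and 0.375).

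Between talazoparib at 10 nM and olaparib at 1 µM, 0 of the 5 members were called by edgeR, 2 had an unadjusted p under 0.05, and DESeq2 called 2 of all 6, while 8.36% of all genes were called. The 2 with an unadjusted p under 0.05 were UGT2B11 and UGT2B28. The 95% interval of the log2 difference was -0.18 to -0.02 for UGT2B11 (adjusted p = 0.12) and -0.27 to -0.02 for UGT2B28 (0.16). Libraries of both drugs overlapped for every member except UGT2B11.

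The combinations were compared first with DMSO. With UGT2B7 left out, 5 of 5 members were called with abiraterone plus olaparib (3 higher, 2 lower) against 62.2% of all genes, and 4 with enzalutamide plus talazoparib (2 higher, 2 lower) against 62.4%. The members' median, here too the value of UGT2B10, was 0.50 and -0.12, and that of all genes 0.0077 and 0.00934. UGT2B17 reached its highest level of the series with abiraterone plus olaparib, at 93.7, 83.6 and 79.0 CPM (85.4 ± 7.54), and was at 55.7, 58.0 and 55.1 CPM (56.2 ± 1.5) with enzalutamide plus talazoparib. Its rise was 3.75 ± 0.08 on the log2 scale, 13.5-fold (adjusted p = 7.49e-26), and 3.15 ± 0.08, 8.88-fold (6.84e-24). UGT2B15 was at 70.6, 69.0 and 64.6 CPM (68.1 ± 3.13) and at 60.5, 65.4 and 64.9 CPM (63.6 ± 2.67). It rose 3.78-fold (1.92 ± 0.05, 2.46e-27) and 3.53-fold (1.82 ± 0.05, 9.39e-27). In libraries of either combination both genes lay above every DMSO library, and per kilobase UGT2B17 was at 34.4 CPM with abiraterone plus olaparib, overlapping UGT2B15 at 31.9.

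UGT2B11 and UGT2B28 stayed low in the combinations. UGT2B11 was at 10.2, 9.49 and 9.17 CPM with abiraterone plus olaparib and at 6.72, 7.75 and 7.58 CPM with enzalutamide plus talazoparib. This was 8.75-fold (-3.13 ± 0.05, adjusted p = 2.58e-32) and 11.5-fold (-3.53 ± 0.05, 6.91e-34) below DMSO. UGT2B28 was at 4.72, 4.18 and 3.77 CPM and at 2.38, 1.86 and 1.70 CPM, which was 13.2-fold (-3.72 ± 0.09, 8.03e-22) and 27.7-fold (-4.79 ± 0.10, 1.77e-23) below DMSO. No library of either combination reached the range of DMSO. UGT2B10 was at 2.90, 2.71 and 3.41 CPM with abiraterone plus olaparib and at 1.38, 2.31 and 2.20 with enzalutamide plus talazoparib. It rose by 0.50 ± 0.18 with the first (0.0181), a call that was lost without DMSO replicate A (0.41, adjusted p = 0.0813) or without combination replicate C (0.40, 0.0913), and its value with the second was -0.12 ± 0.19 (0.592). UGT2B7 had 10, 32 and 20 counts with abiraterone plus olaparib and 17, 18 and 5 with enzalutamide plus talazoparib, against 2, 3 and 5 with DMSO. Its values were 2.67 and 1.65, and no call is read from them because the filter kept the gene through these same libraries. The second was 1.49 without DMSO replicate A and 1.37 without combination replicate B. The sum of UGT2B7 with UGT2B10, UGT2B11 and UGT2B28 was at -3.03 and -3.62, values that mostly reflect the more abundant UGT2B11 and UGT2B28.

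Against the ARPi alone, the question is what the PARP inhibitor added. With olaparib on top of abiraterone 4 of the 5 members other than UGT2B7 rose, and 0 fell, against 29.2% of all genes called. The median was 0.54 for the members and 0.00916 for all genes. UGT2B28 rose by 1.06 ± 0.16 (2.08-fold, adjusted p = 1.25e-05), followed by UGT2B11 with 0.65 ± 0.08 (4.67e-08), UGT2B17 with 0.54 ± 0.06 (1.81e-08) and UGT2B15 with 0.28 ± 0.04 (5.53e-06). UGT2B7, kept by the filter through this combination, was at 1.75, and no call is read from it. This value was 1.40 without abiraterone replicate A and 1.48 without combination replicate B. The libraries overlapped for UGT2B10 only. With talazoparib on top of enzalutamide 2 members rose, UGT2B15 by 0.53 ± 0.04 (6.16e-12) and UGT2B17 by 0.91 ± 0.06 (1.08e-12, 1.88-fold), against 34.4% of all genes, with medians of 0.25 and -0.000727. The libraries overlapped for the 4 other members, UGT2B11 and UGT2B28 included.

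The combination was then compared with the sum of its drugs' log2 fold changes, as an interaction term. UGT2B15 and UGT2B17, which did not rise with a PARP inhibitor alone in the panel, lay above the sum in both combinations. With abiraterone and olaparib 3 members were above it (12.8% of all genes were called in either direction). The excess was 0.54 ± 0.07 for UGT2B15 (adjusted p = 1.73e-06), 0.75 ± 0.12 for UGT2B17 (9.66e-05) and 0.59 ± 0.17 for UGT2B28 (0.0238). The call of UGT2B28 was lost on leaving out abiraterone replicate B (0.39, 0.114) or C (0.63, 0.051) or combination replicate A (0.52, 0.0861) or B (0.60, 0.0582), and with close copies summed (0.11, 0.363). With enzalutamide and talazoparib 2 members were above the sum (12.6% of all genes called). The excess was 0.76 ± 0.07 for UGT2B15 (2.01e-09) and 1.11 ± 0.12 for UGT2B17 (3.02e-07). The share of UGT2B17 in the UGT2B15 and UGT2B17 level was 51.9% ± 1.25 and 43.2% ± 0.971 in the combinations, and the 4 intestine markers summed to 12.7 to 15.1 and 12.6 to 13.8 CPM there. The hepatocyte markers were at 5.00 to 6.19 and 3.98 to 5.18 CPM, and the stroma markers at 57.3 to 61.3 and 47.4 to 47.9 CPM. The part of these lists in the result was not tested.

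**Figure D4:**
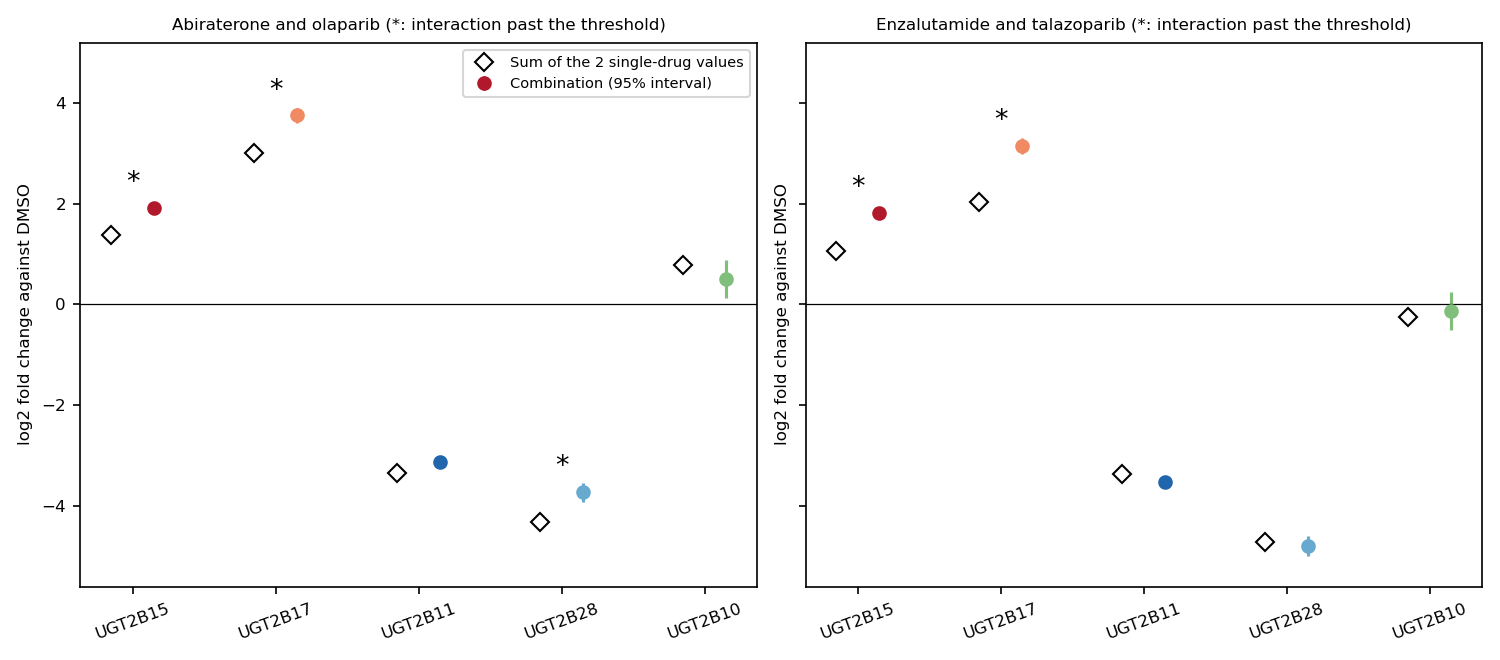
Log2 fold change against DMSO of 5 genes in the combinations of abiraterone with olaparib and of enzalutamide with talazoparib. Filled markers are the measured combination with its 95% interval, open diamonds are the sum of the single-drug values, and asterisks mark an interaction past the threshold. UGT2B15 and UGT2B17 lie above the sum in both combinations.

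The time course addressed how dose and duration of olaparib shaped these changes. After 1 day the members moved little. With olaparib at 1 µM 2 were called, both higher, against 15.8% of all genes, and at 5 µM 2, both higher, against 45.0%, UGT2B7 left out. UGT2B11 was at 65.3, 63.7 and 63.8 CPM with DMSO, 61.5, 63.6 and 64.9 CPM at 1 µM and 68.0, 66.0 and 68.1 CPM at 5 µM. Its values of -0.02 (adjusted p = 0.716) and 0.07 ± 0.03 (0.0554) did not pass. UGT2B28 was at 39.7, 34.2 and 38.6 CPM, 39.5, 39.5 and 37.9 CPM, and 39.6, 40.2 and 41.4 CPM in the same groups, with values of 0.06 (0.453) and 0.11 ± 0.05 (0.0596). Without DMSO replicate 1, or by total count scaling, both genes passed at 5 µM, at values of 0.08 and 0.15 without that library, and UGT2B11 also passed without replicate 2 of 5 µM (0.08). With a filter of a mean of at least 10 counts both passed as well (adjusted p = 0.0440 for UGT2B11 and 0.0466 for UGT2B28), and UGT2B28 passed with no filter (0.00531) and with the replicate number as a block (0.0480). The summed counts of the close copies UGT2B7, UGT2B10, UGT2B11 and UGT2B28 were called at 5 µM (0.10, adjusted p = 0.00405), a call lost without DMSO replicate 2 (0.07, 0.0574). UGT2B15 was at 38.2, 34.8 and 35.4 CPM, 40.9, 37.7 and 37.0 CPM, and 36.3, 37.2 and 36.3 CPM, overlapping throughout (0.09, adjusted p = 0.147, and 0.02, 0.749).

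UGT2B17 was slightly higher after 1 day. Its libraries were at 11.1, 10.0 and 9.28 CPM with DMSO, at 11.6, 11.3 and 12.3 CPM at 1 µM and at 11.9, 12.2 and 12.4 CPM at 5 µM, and did not overlap with DMSO. The value was 0.21 ± 0.07 (adjusted p = 0.0469) at 1 µM and 0.26 ± 0.07 (0.00336) at 5 µM. The first call was lost without DMSO replicate 2 (0.20) or 3 (0.15) or without 1 µM replicate 1 (0.22), 2 (0.23) or 3 (0.17). It was also lost by DESeq2 (adjusted p = 0.0653) and with the replicate block (0.0625). The second was lost with UGT2B15 and UGT2B17 summed (0.08, 0.116). Their sum passed at 1 µM (0.12, adjusted p = 0.0320), but not without DMSO replicate 2 (0.150) or 3 (0.162) or 1 µM replicate 1 (0.200). UGT2B10 was at 3.01, 3.21 and 3.28 CPM, 4.59, 3.93 and 3.87 CPM, and 3.99, 4.30 and 4.56 CPM, with both olaparib groups above DMSO. It rose by 0.38 ± 0.12 (0.0262) and 0.43 ± 0.12 (0.00319). The call at 1 µM was lost without DMSO replicate 1 (0.35) or 2 (0.39) or 1 µM replicate 1 (0.30). The sum of UGT2B10 with its close copies, mostly UGT2B11 and UGT2B28, was at 0.02 (0.682). UGT2B7 had 11, 7 and 9 counts with DMSO, 8, 11 and 14 at 1 µM and 16, 18 and 24 at 5 µM. Its value at 5 µM was 1.14, and no call is read from it because these libraries brought the gene past the filter. The value was 0.93 without DMSO replicate 2 and 0.96 without 5 µM replicate 3.

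**Figure D5:**
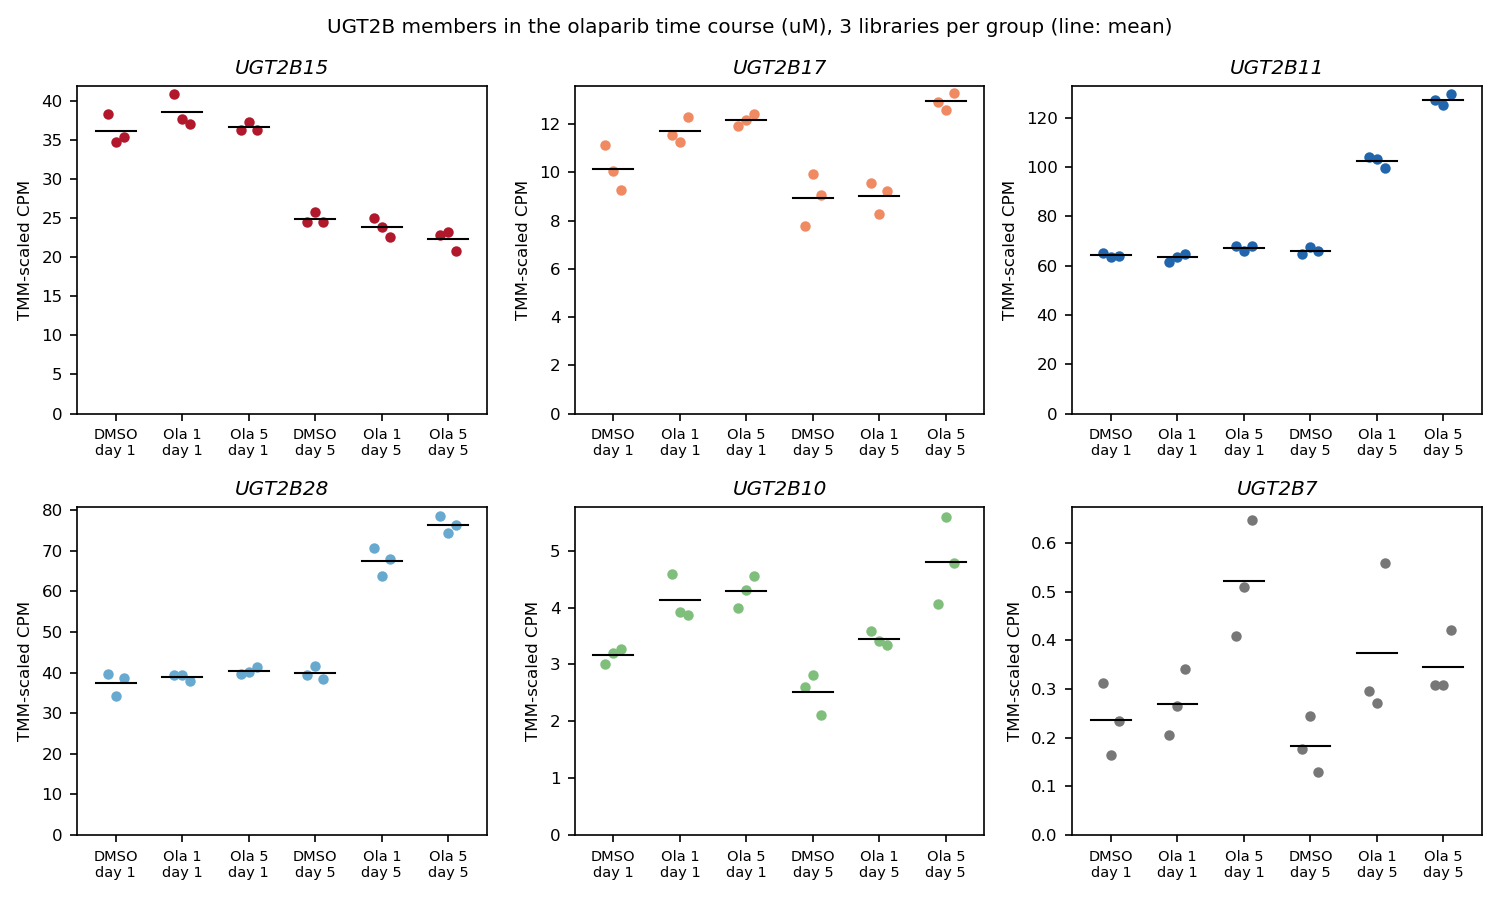
Level of each of the 6 UGT2B genes (TMM-scaled CPM, axes from 0) in the 6 groups of the time course. Points are the 3 libraries of a group and lines their means. UGT2B11 and UGT2B28 are higher with olaparib on day 5, and UGT2B15 is lower in all groups of day 5 than in those of day 1.

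After 5 days UGT2B11 and UGT2B28 had risen with dose. Of the 5 members other than UGT2B7, which passed the filter of 0.266 CPM through the olaparib groups, 3 were called at 1 µM, all higher, against 46.3% of all genes, and 5 at 5 µM (4 higher, 1 lower) against 68.2%, with medians of 0.46 and 0.94. UGT2B11 was at 64.6, 67.4 and 65.8 CPM with DMSO, at 104, 103 and 99.6 CPM at 1 µM and at 127, 125 and 129 CPM at 5 µM. The 3 groups did not overlap. It rose by 0.63 ± 0.03 (1.55-fold, adjusted p = 2.39e-20) and by 0.95 ± 0.03 (1.93-fold, 5.81e-27). UGT2B28 was at 39.5, 41.7 and 38.5 CPM, at 70.8, 63.7 and 68.0 CPM and at 78.4, 74.4 and 76.4 CPM, again without overlap. It rose by 0.76 ± 0.04 (1.69-fold, 1.57e-13) and by 0.94 ± 0.04 (1.92-fold, 3.52e-16).

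UGT2B17 passed the test at 5 µM and not at 1 µM, and the difference between the doses was itself called, at 0.52. It was at 7.78, 9.94 and 9.06 CPM with DMSO, at 9.55, 8.27 and 9.21 CPM at 1 µM and at 12.9, 12.6 and 13.3 CPM at 5 µM, with values of 0.02 (adjusted p = 0.864) and 0.54 ± 0.07 (4.28e-08, 1.46-fold). UGT2B15 was at 24.5, 25.7 and 24.5 CPM, 24.9, 23.9 and 22.6 CPM, and 22.8, 23.3 and 20.8 CPM. Its value was -0.06 at 1 µM (0.31) and -0.16 ± 0.05 at 5 µM (0.00505), a call that was lost without 5 µM replicate 3 (-0.10, 0.0853). The counts assigned to the 2 copies thus moved apart at 5 µM, while their summed counts did not pass the test (0.06, 0.21). The part of how common reads were split was not tested. The share of UGT2B17 in their level was 23.5% ± 1.81 with DMSO and 33.4% ± 1.90 at 5 µM. UGT2B10 was at 2.60, 2.82 and 2.11 CPM with DMSO, 3.59, 3.41 and 3.35 at 1 µM and 4.06, 5.59 and 4.78 at 5 µM, without overlap. It rose by 0.46 ± 0.13 (0.00272) and by 0.94 ± 0.12 (1.86e-08). The far more abundant UGT2B11, with which UGT2B10 has reads in common, rose in the same groups, and the part of such reads was not tested. UGT2B7 had 8, 9 and 5 counts with DMSO, 11, 10 and 20 at 1 µM and 11, 11 and 15 at 5 µM. Its values were 1.02 and 0.92, and no call is read from them because the olaparib libraries brought the gene past the filter. The first was 1.00 and 0.84 without DMSO replicate 1 or 3, and 0.63 without 1 µM replicate 3. The second was 0.89 and 0.73 without DMSO replicate 1 or 3, and 1.00, 1.00 and 0.76 without each 5 µM library. Neither passed with no filter on low counts (adjusted p = 0.0625 and 0.0838) or by DESeq2 (0.0964 and 0.128). The second did not pass by total count scaling (0.0643). Markers of hepatocytes moved in the same groups, from 2.44 to 2.78 CPM with DMSO to 6.52 to 6.64 and 9.99 to 11.6 CPM with olaparib, TTR leading, while ALB stayed at no more than 11 counts and CYP3A4 at no more than 5. Stroma markers moved too, from 31.3 to 32.0 CPM with DMSO to 51.4 to 52.4 and 77.0 to 77.3 CPM. Luminal markers went from 4409 to 4455 CPM to 5093 to 5127 and 5752 to 5841, and basal markers from 0.271 to 0.515 CPM to 1.15 to 1.34 and 1.32 to 1.94. At 5 µM the neuroendocrine markers (1.26 to 1.69 against 1.84 to 2.01 CPM) and the intestine markers (2.28 to 2.41 against 2.57 to 3.47 CPM) were lower than with DMSO. The part of these lists in the result was not tested.

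Between the doses, 1 member was called on day 1 (28.8% of all genes), UGT2B11 at 0.09 ± 0.03 (adjusted p = 0.0189), higher at 5 µM. This call rested on single libraries and was lost without 1 µM replicate 1 (0.07) or 5 µM replicate 1 (0.08) or 3 (0.08). UGT2B7 was at 0.94, and no call is read from it because the olaparib groups brought it past the filter. Its value was 0.78 and 0.92 without 1 µM replicate 1 or 2, and 0.95 and 0.75 without 5 µM replicate 2 or 3. It did not pass with no filter (adjusted p = 0.0844) or by DESeq2 (0.119). On day 5, 4 members were called, all higher at 5 µM, against 53.6% of all genes. These were UGT2B17 with 0.52 ± 0.07 (2.05e-07), UGT2B10 with 0.48 ± 0.12 (0.000919), UGT2B11 with 0.32 ± 0.03 (1.57e-12) and UGT2B28 with 0.18 ± 0.04 (0.00065). The libraries of the doses overlapped for UGT2B7 and UGT2B15.

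The effect of olaparib differed between days for the abundant pair. At 1 µM the interaction of drug and day was called for 2 members, against 29.8% of all genes, with 0.65 ± 0.04 for UGT2B11 (adjusted p = 1.91e-15) and 0.70 ± 0.06 for UGT2B28 (3.75e-09). At 5 µM it was called for 5 members (4 higher, 1 lower) against 54.9% of all genes. UGT2B11 gained 0.88 ± 0.04 (2.03e-20) and UGT2B28 0.83 ± 0.06 (3.52e-11) from day 1 to day 5. The other 3 rested on single libraries. UGT2B10 at 0.50 ± 0.17 (0.0133) was lost without DMSO day 5 replicate 3 (0.39) or 5 µM day 5 replicate 2 (0.39). UGT2B17 at 0.28 ± 0.10 (0.0217) was lost without DMSO replicate 1 of day 1 (0.21) or of day 5 (0.18), and UGT2B15 at -0.18 ± 0.07 (0.0213) without DMSO replicate 2 of day 1 (-0.15) or of day 5 (-0.16) or without 5 µM day 5 replicate 3 (-0.12). The call of UGT2B15 was also lost by DESeq2 (-0.17, adjusted p = 0.057), those of UGT2B10 (0.37, 0.0657) and UGT2B17 (0.15, 0.224) by total count scaling, and those of UGT2B15 and UGT2B17 with their counts summed (-0.02, 0.846).

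Members also differed between the DMSO groups of day 1 and day 5, and the part of time in culture in this was not tested. From day 1 to day 5 with DMSO 2 were called, both lower, against 24.5% of all genes. UGT2B15 fell by 0.54 ± 0.05 (adjusted p = 2.71e-11), and the libraries of the 2 days did not overlap. UGT2B10 was called at -0.34 ± 0.13 (0.0494), lost without DMSO day 1 replicate 1 (-0.37), 2 (-0.33) or 3 (-0.31) or day 5 replicate 1 (-0.36) or 3 (-0.23). The call was also lost by DESeq2 (adjusted p = 0.0766), with no filter (0.101), by total count scaling (0.0674), with the replicate block (0.0565) and with the compared groups alone (0.0713). The sum of UGT2B10 with its close copies, mostly UGT2B11 and UGT2B28, was at 0.05 (0.258). The libraries of UGT2B7, UGT2B11, UGT2B17 and UGT2B28 overlapped between the days.

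Olaparib at 1 µM for 5 days was given in both experiments. The rise was larger in the time course than in the panel for 2 of the 5 members that could be tested, where 1.97% of all genes were called. The panel's effect less that of the time course was -0.21 ± 0.04 for UGT2B11 (adjusted p = 0.00478) and -0.32 ± 0.06 for UGT2B28 (0.00855). Each experiment's effect was taken against its own DMSO, and the experiment cannot be told apart from anything else that differed between the 2 runs.

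Other UGT genes were mostly silent. Of 26 listed, 5 were tested in the panel and 6 in the time course. The pseudogenes UGT2B24P and UGT2B25P followed the direction of UGT2B11 and UGT2B28. UGT2B25P had 14 to 21 counts per library with DMSO and 0 in all 12 libraries with an ARPi, at least 5.52-fold lower with abiraterone, 6.25-fold with enzalutamide, 5.35-fold with abiraterone plus olaparib and 6.94-fold with enzalutamide plus talazoparib, with 3 counts per library as the floor. UGT2B24P had 22 to 35 counts with DMSO and 0 with abiraterone and with enzalutamide, at least 9.56-fold and 10.8-fold lower. UGT1A6, of the bilirubin and phenol conjugating UGT1 locus whose genes share exons, had 2 to 5 counts with DMSO and 42 to 47 with abiraterone plus olaparib. It passed the low-count filter through the groups where it was high and so is given without a test. UGT8, a galactosyltransferase of myelin lipids, fell by 2.23 ± 0.06 with olaparib at 5 µM for 5 days (7.54e-28).

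All 6 listed genes that supply and use UDP-glucuronic acid were tested. With abiraterone 3 were called (all lower), against 52.9% of all genes, and with enzalutamide 3 (1 higher, 2 lower), against 53.3%. With olaparib 3 were called (2 higher, 1 lower), against 35.6%, and with talazoparib 4 (2 higher, 2 lower), against 33.8%. On day 5 of the time course 5 were called at 1 µM, against 46.3%, and 5 at 5 µM, against 68.2% (2 higher, 3 lower at each). UGDH, the dehydrogenase that makes UDP-glucuronic acid, fell by 0.23 ± 0.04 on the log2 scale with abiraterone (adjusted p = 1.58e-05) and by 0.43 ± 0.04 with abiraterone plus olaparib (4.58e-11). GUSB, the glucuronidase that removes glucuronic acid, fell by 0.65 ± 0.04 with olaparib at 5 µM for 5 days (1.01e-18). Of 4 efflux transporters 2 were tested. ABCC4, which exports conjugates, fell by 1.32 ± 0.03 with abiraterone (9.9e-30) and by 1.88 ± 0.03 with enzalutamide (3.41e-34), and ABCG2 rose by 1.71 ± 0.15 (2.77e-12) and by 0.49 ± 0.15 (0.00698).

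Of 18 enzymes that make, interconvert or sulfate androgens, 10 were tested in the panel. One of them, HSD17B2, passed the low-count filter through the PARP inhibitor groups and is left out of the counts of enzymes called. Of the other 9, with abiraterone and with enzalutamide 5 were lower and 1 higher in each, against 52.9% and 53.3% of all genes called, and with olaparib and with talazoparib 4 were higher and 0 lower in each, against 35.6% and 33.8%. RDH16, which oxidizes androstanediol, a substrate of UGT2B15 and UGT2B17, back toward dihydrotestosterone, fell by 2.03 ± 0.18 with abiraterone (adjusted p = 5.31e-11) and by 2.40 ± 0.19 with enzalutamide (1.69e-12). HSD17B6, of the same reaction, fell by 1.60 ± 0.19 (6.79e-09) and by 1.32 ± 0.18 (1.59e-07). SULT2B1, a steroid sulfotransferase, rose by 1.01 ± 0.13 (2.91e-08) and by 1.12 ± 0.13 (2.49e-09). HSD17B2, which inactivates testosterone by oxidation, had 0 to 3 counts per library with DMSO and 10 to 14 with olaparib in the panel, and 41 to 50 at 5 µM after 5 days. In that group 5 of the other 9 enzymes were higher and 4 lower, against 68.2% of all genes called, with HSD17B6 at -1.63 ± 0.14 (3.56e-13) and SULT2B1 at -1.51 ± 0.13 (1.46e-12). Of the transcription factors listed, FOXA1, a pioneer factor of luminal cells, was called at -0.13 ± 0.02 with abiraterone (1.91e-05) and 0.13 ± 0.02 with enzalutamide (1.15e-05). CDX2, an intestinal factor near the filter with DMSO, had 4 to 11 counts per library with DMSO and 24 to 31 with abiraterone, given here without a test.

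Over all 39 libraries, centered within each experiment, the patterns of 12376 genes were compared with that of each member by Pearson's r on log2 CPM. The points share their groups, so r is given as a measure of likeness with no test. UGT2B11 was most like CD2AP (0.993), FKBP5 (0.991), an androgen-induced immunophilin, and FBXO38 (0.990). UGT2B28 was most like ADAM7 (0.992), ENSG00000261578 (0.991) and MBOAT2 (0.991). UGT2B15 was most like RNF43 (0.974), NFKB1 (0.973) and PRKD1 (0.969), and UGT2B17 most like STK3 (0.982), ATP11A (0.981) and RTN4 (0.979). The likeness was lower for the sparse members, UGT2B10 with CARD14 (0.747), PER1 (0.746) and DUSP8 (0.706), and UGT2B7 with ZNF195 (0.760) and FAM111A (0.743).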

How the data were processed

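RNA from C4-2B cells was sequenced as stranded, paired-end mRNA libraries. The authors deposited 1 table of estimated counts per gene. They trimmed reads with Trim Galore, mapped them with STAR to GRCh38 and estimated gene counts with Salmon on a later GENCODE release than the one used here for names, within nf-core/rnaseq. The deposited values are whole numbers, and how they were rounded is not given in the sources used here. Salmon divides reads common to close copies by likelihood, so the split between copies, within the pairs and beyond them, is a model estimate.

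Of 63187 identifiers 62666 had a symbol in GENCODE 44, and the 521 others held 0.12% of counts. Genes were kept by edgeR's filterByExpr, which left 18625 in the panel, 18502 in the time course and 17833 over both. Counts were scaled by TMM and tested with edgeR 4.0.16 (quasi-likelihood F-test, robust, two-sided) in R 4.3.3, with all groups of an experiment in 1 fit, Benjamini-Hochberg adjustment over all genes tested, and a call at an adjusted p under 0.05. In all, 22 comparisons were made. SE is the absolute log2 fold change over the root of F, and is not given for UGT2B7. CPM per kb uses the length of the canonical transcript. Words, identities and motifs came from Biopython 1.88 in Python 3.11.15. No 2 libraries of a group agreed within counting noise (smallest chi-square per degree of freedom 2.11).

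The members and lists were chosen with earlier results of these data known. All 6 members are named with their values, other genes as counts per list with up to 3 examples, and the 3 genes most like each member among those with a mean of at least 100 counts, some genes of these lists not being reported here. The test was tried on simulated data for abiraterone against DMSO with 17193 genes. It called 50, 49, 50 and 50 of 50 genes changed 0.25-, 0.5-, 2- and 4-fold, and 8 unchanged genes. The changed genes had a mean of at least 50 counts, and all genes were drawn with the same spread, unlike real genes. The trial therefore does not cover low genes such as UGT2B7 or changes smaller than 2-fold. Alternatives were RLE and total count scaling, no filter and a mean of at least 10 counts, DESeq2 1.42.0 (Wald test, local fit), the compared groups alone, a replicate block, a log2 fold change of at least 1, each library left out, and close copies summed.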

Additional observations from a re-analysis of the deposited data

Results flagged for a closer look

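Tests of a difference between effects stood out for 5 members. The combination of abiraterone and olaparib lay above the sum of its drugs by 0.543 for UGT2B15, 0.749 for UGT2B17 and 0.592 for UGT2B28 on the log2 scale, and that of enzalutamide and talazoparib by 0.758 for UGT2B15 and 1.11 for UGT2B17. The effect of olaparib at 1 µM was larger on day 5 than on day 1 by 0.655 for UGT2B11 and 0.700 for UGT2B28. At 5 µM the same difference was 0.503 for UGT2B10, 0.881 for UGT2B11, -0.179 for UGT2B15, 0.281 for UGT2B17 and 0.828 for UGT2B28. The 5 µM calls of UGT2B10, UGT2B15 and UGT2B17 were lost without single libraries and under other processing. So was that of UGT2B28 for abiraterone and olaparib. The effect of olaparib at 1 µM for 5 days in the panel less that in the time course was -0.214 for UGT2B11 and -0.316 for UGT2B28.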

How the results depend on the processing

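RLE scaling changed no count of members called, no direction and no call. The replicate letters and numbers did not pair the libraries (0 of 63 same-letter correlations over 0.1 in the panel, 2 of 45 in the time course), and a replicate block left 1 member called with olaparib 1 µM on day 1 and 1 in DMSO day 5 against day 1, where the main count was 2 in each, and moved no other count by over 1.5 times, while UGT2B28 passed with olaparib 5 µM on day 1 (0.11). DESeq2 called 2 for talazoparib against olaparib, and 1 each for olaparib 1 µM on day 1, 5 against 1 µM on day 1 and DMSO over time. Without a filter 1 was called for talazoparib against olaparib, 5 against 1 µM on day 1 and DMSO over time, and with the compared groups alone 1 for talazoparib against olaparib and for DMSO over time. Total count scaling gave 5 with olaparib 5 µM on day 1, 1 for DMSO over time and 3 for 5 µM by day, and a mean of at least 10 counts gave 5 for the first. Requiring a log2 fold change of at least 1 left 0 for olaparib, talazoparib, enzalutamide plus talazoparib against enzalutamide, abiraterone by olaparib, olaparib 1 µM on day 1, 5 µM on day 5, both dose comparisons, DMSO over time, both day interactions and the experiment interaction. It left 1 for enzalutamide against abiraterone and for enzalutamide by talazoparib. For 5 µM on day 1 and 1 µM on day 5 it left only UGT2B7, which the filter kept through the olaparib groups. The 2 left for abiraterone plus olaparib against abiraterone were UGT2B28 and UGT2B7, the latter kept through the combinations.

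The sums of close copies fell under that threshold at -0.252 (olaparib), -0.223 (talazoparib) and 0.120 (1 µM, day 1) for UGT2B15 and UGT2B17, and at 0.445, 0.329, 0.0987 (5 µM, day 1), 0.679 and 0.945 (1 and 5 µM, day 5) for the other 4. The sums had the opposite sign to UGT2B7 (-3.03 and -3.62 in the combinations), UGT2B10 (-3.58 with abiraterone, -3.03 with abiraterone plus olaparib, 0.0459 for DMSO over time), UGT2B11 (0.0220, 1 µM, day 1), UGT2B15 (0.0615, 5 µM, day 5) and UGT2B17 (-0.0409, 1 µM, day 5, and -0.0154 for 5 µM by day). For UGT2B7 and UGT2B10 the sum was mostly UGT2B11 and UGT2B28, so its sign does not bear on UGT2B7 or UGT2B10. The counts of members called here include UGT2B7. With it the main counts were 3 (5 µM, day 1), 2 (dose, day 1), 4 and 6 (1 and 5 µM, day 5) and 5 (abiraterone plus olaparib against abiraterone). Total count scaling reversed UGT2B11 at 1 µM on day 1 (0.00526), UGT2B17 at 1 µM on day 5 (-0.00248) and the UGT2B15 and UGT2B17 sum at 5 µM on day 5 (-0.0211), and the same sum passed at 5 µM on day 1 (0.125). The cause was not tested.

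With each library left out, the members called ranged from 0 to 1 (1 µM, day 1), 2 to 5 (5 µM, day 1), 0 to 2 (dose, day 1) and 1 to 3 (DMSO over time). Values that changed sign ranged from -0.0461 to 0.0941 (olaparib), -0.0577 to 0.202 (talazoparib) and -0.260 to 0.0921 (enzalutamide plus talazoparib) for UGT2B10, from -0.00863 to 0.0611 for UGT2B15 (5 µM, day 1), from -0.0758 to 0.102 for UGT2B17 (1 µM, day 5) and from -0.00608 to 0.102 for UGT2B28 (1 µM, day 1). The UGT2B15 and UGT2B17 sum ranged from 0.0885 to 0.167 and from 0.0526 to 0.124 at 1 and 5 µM on day 1, and the sum of the other 4 from -0.00546 to 0.0443 and from 0.0705 to 0.120. Of all genes, 1557 were called for talazoparib against olaparib and 595 to 1821 without single libraries (over 1.5 times fewer without olaparib A, B or C or talazoparib B or C), 2928 and 1932 without DMSO replicate 1 for 1 µM on day 1, and 352 for the experiment interaction against 672 without a filter, 657 by DESeq2 and 155 to 773 without single libraries (over 1.5 times apart without any but panel DMSO A and olaparib B). The low counts of UGT2B7 limit what its values show.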
